A study of Mus musculus with 192 samples.

Results

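Mouse bone marrow-derived dendritic cells that received Zymosan and CpGB together were compared with cells that received Zymosan or CpGB singly. The comparison uses the 9 libraries with these labels, 3 per group, of the 192 libraries in the series. A gene was asked whether the pair lay above both singles, below both, or nearer to one of them. The series covers 7 ligands of pattern recognition receptors, added singly, in pairs and in triplets, with an unstimulated group named Ctrl. Every group held dendritic cells grown with 15 ng/mL GM-CSF from marrow of female C57BL/6J mice aged 6 to 8 weeks, plated at 100000 cells per well and exposed for 6 hours. The groups were Ctrl (no ligand), Zymosan (labelled Zymosan depleted, with no statement of what was removed), CpGB, and Zymosan_CpGB. Further groups, also of 3 libraries each, were used for comparison: HMW_Zymosan, HMW_CpGB and HMW_Zymosan_CpGB, in which a ligand labelled HMW was added, and LPS, LPS_Zymosan, PAM and PAM_Zymosan, with the ligands labelled LPS and PAM. Labels give no ligand dose, do not spell out CpGB, HMW, LPS or PAM, and do not say whether the 3 libraries of a group came from separate animals or cultures. The p-values therefore measure the spread between these libraries, which may be technical.

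Zymosan is a yeast cell wall particle rich in beta-glucan. The lectin receptor Dectin-1, the product of Clec7a, binds beta-glucan and signals through the kinase Syk and the adaptor CARD9 to NF-kB, and through calcium to NFAT and the Egr factors. DNA with unmethylated CpG motifs is sensed in endosomes by TLR9, which signals through MyD88 to NF-kB and to interferon regulatory factors. Both routes are known to raise Tnf and other cytokines in dendritic cells, and the oxidative burst and the glycolytic switch are known features of Dectin-1 engagement.

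Expression is given as CPM, the counts of unique molecular identifiers (UMIs) brought to a common library size, and differences as log2 values ± SE from 1 model of all libraries, the SE being approximated from the F statistic of the test. A gene was called when the adjusted p was under 0.05 and the log2 difference was at least 1. Totals ran from 98306 to 218755 UMIs over the 9 libraries and from 61823 to 89530 UMIs in Ctrl, so values against Ctrl rest on the fewest counts. Of 23481 genes in the table, 4720 carried enough counts to be tested. The dendritic cell markers Itgax, H2-Ab1 and Cd74 were abundant in every group, whereas Flt3, Zbtb46 and Dpp4 stayed under 12 CPM on average. Sums of 8 such markers were 3210 to 3414 CPM with Zymosan and 3412 to 3542 CPM with CpGB. With the pair they were 3810 to 3886 CPM. Ccr7 averaged 280, 408 and 418 CPM and Batf3 29.2, 21.0 and 15.6 CPM with Zymosan, CpGB and the pair. Macrophage and monocyte markers were abundant too: 7 markers summed to 9503 to 9745 CPM with Zymosan, 10293 to 10689 CPM with CpGB and 8371 to 9846 CPM with the pair. The markers moved in different directions: Csf1r averaged 1355 CPM with Zymosan, 974 CPM with CpGB and 768 CPM with the pair, Fcgr1 38.9, 252 and 255 CPM, and Cd14 712, 1368 and 912 CPM in that order. Neutrophil markers, led by S100a8 and S100a9, summed to 651 to 805 CPM over the 9 libraries. Markers of B cells, T and NK cells and mast cells summed to at most 36.8 CPM in any of the 9 libraries, and the 5 erythroid markers had no count. Whether a shift in cell composition moved with the ligands was not tested, and in such bulk samples fewer cells of a type and less RNA per cell cannot be told apart.

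By count of calls, adding CpGB to Zymosan changed more genes than adding Zymosan to CpGB. Against Zymosan, the pair raised 380 genes (8.05% of those tested) and lowered 153 (3.24%). Against CpGB, it raised 168 genes (3.56%) and lowered 35 (0.742%). The singles themselves differed for 735 genes, of which 320 were higher with Zymosan (6.78%) and 415 higher with CpGB (8.79%). Relative to Ctrl, CpGB raised 508 genes (10.8%) and lowered 296 (6.27%), Zymosan raised 209 (4.43%) and lowered 86 (1.82%), and the pair raised 615 (13%) and lowered 334 (7.08%). The falls of Zymosan under Ctrl numbered 31 with no filter on low counts, 52 without the second Zymosan library, and 55 and 45 without the second and the third Ctrl library. The plot of both contrasts shows that most called genes passed both thresholds against only 1 single: 492 genes were called against Zymosan only and 162 against CpGB only. The 41 genes called against both comprised 21 higher in each contrast, 5 lower in each and 15 that lay between the singles. The count of falls against Zymosan was lower whenever 1 library of either group was left out. It was 76 without the third Zymosan library, 81 without the third pair library and 92 without the second Zymosan library. With all libraries kept and no filter on low counts it was 83. What lowered the count was not tested. Scaling by library size alone moved the median of all genes by -0.19 against Zymosan and by -0.11 against CpGB (log2), and the calls then split into 307 rises and 273 falls against Zymosan and 125 rises and 61 falls against CpGB. Between the singles that scaling gave 369 genes higher with Zymosan and 366 higher with CpGB. Against Ctrl it gave 166 rises and 138 falls for Zymosan, 392 and 491 for CpGB and 447 and 632 for the pair.

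**Figure D1:**
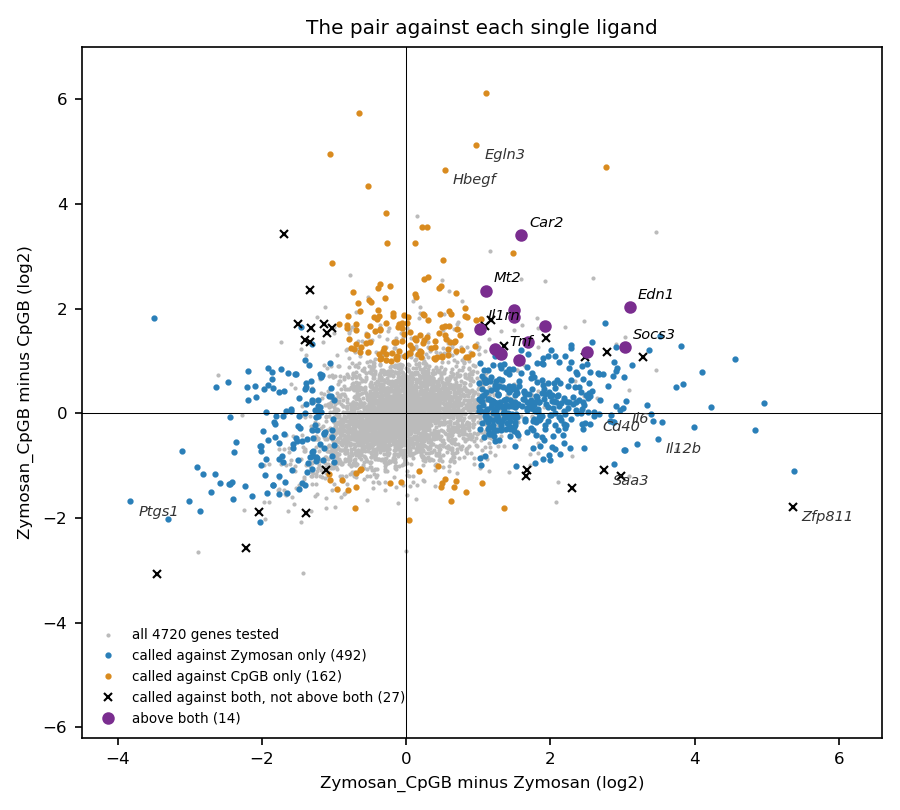
Each point is 1 of 4720 tested genes, placed by its log2 difference between the pair and Zymosan (horizontal) and between the pair and CpGB (vertical). Blue points, called against Zymosan only, number 492 and lie mainly to the right near the horizontal line; orange points, called against CpGB only, number 162 and lie mainly above it; the 27 crosses were called against both but are not above both, and the 14 purple points are above both.

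A stricter joint rule, which took the larger of the 2 p-values of a gene and adjusted it over all tested genes, called 14 genes above both singles (0.297%) and none below both. The 14 were Edn1, Serpinb2, Car2, Stx11, A630072M18Rik, Aff1, Socs3, Tiparp, Socs1, Mxd1, Tnf, Mt2, Il1rn and Fabp3. In each of them the lowest pair library lay above the highest library of either single. Edn1, Socs3 and Tnf were called in all 16 alternative settings tried for the set, and Mxd1 in 5 of the 16. Car2 and Aff1 were called in 15 and lost the call when libraries were thinned to equal totals. Of the 14 genes, DESeq2 called 8 and the thinned libraries 3. Il1rn was called in 10 and fell short of the fold threshold in the other 6, with an adjusted p of at most 3.8e-05 over the 16. Without the third pair library 7 genes were called above both, 6 of them among the 14. Leaving out 1 library in turn cost the call of Serpinb2 (the third pair, the second or the third CpGB library), Stx11 (the first or the third pair, the third Zymosan, the third CpGB), A630072M18Rik (the first or the third pair, the third Zymosan), Tiparp (the third pair, the third Zymosan, any CpGB), Socs1 (the first or the third CpGB), Mxd1 (any pair or CpGB, the third Zymosan), Mt2 and Il1rn (the third pair) and Fabp3 (the first or the third pair, the first or the third CpGB). Without the fold threshold the joint rule called 43 genes above both (0.911%), among them Il1a, Ptgs2, Ccl4, Cd274, Atf3, Zfp36, Ifit1, Ifit2, Rsad2 and Cmpk2. Nearest the threshold, Fabp3 passed with a smaller log2 difference of 1.01 and Rsad2 missed it with 0.97.

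Cytokine genes in this set were Tnf and Il1rn, which act in opposite directions on inflammation. Tnf, the proinflammatory cytokine, measured 5494, 5420.0 and 5206 CPM with Zymosan, 5473, 6699 and 6109.8 CPM with CpGB and 12106, 12639 and 15244 CPM with the pair. Each single already stood well above the Ctrl mean of 856 CPM, and the pair groups did not overlap with either single. Its log2 difference was 1.31 ± 0.15 against Zymosan and 1.13 ± 0.15 against CpGB (joint adjusted p = 6.8e-09). Il1rn, the receptor antagonist that blocks interleukin-1, measured 3258, 2848 and 3294 CPM with Zymosan, 1659, 1961 and 2518 CPM with CpGB and 6373, 5477 and 7208 CPM with the pair. Here Zymosan was the higher single, and the pair exceeded it by 1.02 ± 0.15 and CpGB by 1.62 ± 0.16 on the log2 scale (joint adjusted p = 2.1e-07).

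Negative regulators of cytokine receptor signalling were the next members. Socs3 and Socs1 encode proteins that inhibit JAK and STAT signalling. Socs3 measured 73.6, 122 and 79.3 CPM with Zymosan, 252, 352 and 314 CPM with CpGB and 765, 671 and 834 CPM with the pair. The pair lay 3.03 ± 0.22 above Zymosan and 1.27 ± 0.17 above CpGB (log2; joint adjusted p = 6.8e-09), and no libraries overlapped. Socs1 measured 27.6, 51.2 and 28 CPM, 48.5, 123 and 83 CPM and 206, 215 and 194 CPM in the same order. Its second CpGB library was the highest single library, and the pair still stood above it (log2 differences 2.50 ± 0.34 and 1.17 ± 0.27, joint adjusted p = 0.0045). Mxd1, a partner of Max that opposes Myc, rose from 82.6 ± 23.1 CPM with Zymosan and 86.2 ± 29.7 CPM with CpGB to 199 ± 35 CPM (mean ± SD, n = 3; joint adjusted p = 0.046, edgeR). Aff1, a scaffold of the super elongation complex of transcription, was nearly level between Ctrl and both singles, at 64 CPM, 58.7 CPM and 71.2 CPM, and averaged 185 CPM with the pair. Tiparp, an ADP-ribosyltransferase known as a target of the aryl hydrocarbon receptor, averaged 83.4 CPM, 77.7 CPM and 182 CPM with Zymosan, CpGB and the pair.

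Edn1, which encodes the precursor of the vasoconstrictor peptide endothelin-1, had the largest smaller difference of the 14 genes. It measured 27.6, 44.8 and 70 CPM with Zymosan, 67.9, 112 and 129 CPM with CpGB and 419, 379 and 543 CPM with the pair. The pair exceeded Zymosan by 3.10 ± 0.35 and CpGB by 2.03 ± 0.29 on the log2 scale (joint adjusted p = 4.8e-08). Serpinb2, an inhibitor of the plasminogen activator urokinase, measured 46, 38.4 and 32.7 CPM, 77.6, 46 and 27.7 CPM and 155, 102 and 179 CPM with Zymosan, CpGB and the pair. The CpGB libraries were spread widely, and the lowest pair library stayed above all of them. Car2, the cytosolic carbonic anhydrase 2, measured 92, 32 and 70 CPM, 0, 25.5 and 18.4 CPM and 184, 149 and 238 CPM in that order. The first CpGB library had no Car2 count, and Zymosan was the higher single. Mt2, a zinc-binding metallothionein, measured 166, 179 and 224 CPM, 126, 56.2 and 83 CPM and 353, 369 and 519 CPM. The CpGB mean of 88.4 CPM lay below the Ctrl mean of 115 CPM, and the pair lay 2.34 ± 0.26 above CpGB (log2). Stx11, a SNARE protein of granule release, averaged 42.7 CPM, 35.8 CPM and 115 CPM. Fabp3, a fatty acid-binding protein, averaged 83.9 CPM, 118 CPM and 238 CPM, and A630072M18Rik averaged 42.6 CPM, 27.4 CPM and 109 CPM.

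**Figure D2:**
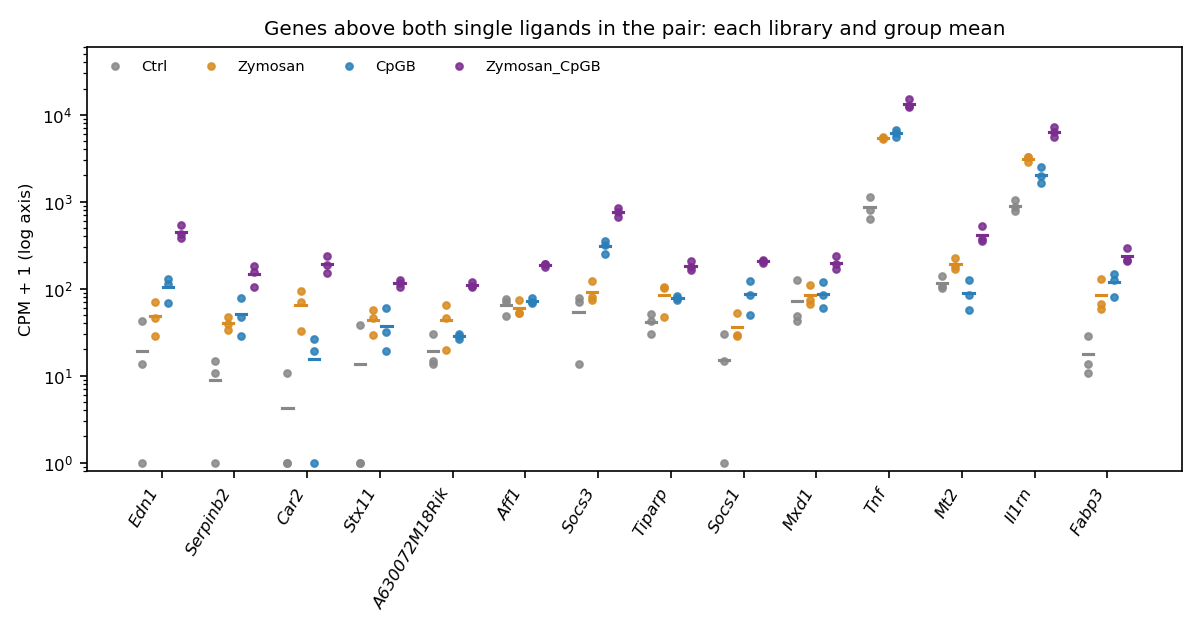
CPM + 1 on a log axis of the 14 genes above both singles, with 1 point per library and a bar at the mean of 3 libraries, for Ctrl (grey), Zymosan (orange), CpGB (blue) and the pair (purple). For every gene shown, the 3 pair libraries lie above all 6 single-ligand libraries; Tnf and Il1rn are the most abundant and Il1rn is higher with Zymosan than with CpGB.

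Promoters of these genes were searched on both strands, in the 250 bases before each RefSeq start (build GRCm38.p6), for a kB site (GGG and TTTCC with any 2 bases between), an NFAT core (TGGAAA), an AP-1 site (TGANTCA) and an interferon-stimulated response element (2 runs of GAAA with any 2 bases between). Of the 14 genes, 13 had a promoter in the table. The kB letters were found for 1 gene, Il1rn, and in 1.65% of all genes with a promoter. The NFAT core was found for 3 genes (Il1rn, Serpinb2 and Tnf) and in 20.9% of all genes, and the AP-1 site for 3 (Il1rn, Mt2 and Serpinb2) and in 7.82%. The interferon element was found for 2 genes (Edn1 and Socs1) and in 3.46% of all genes. A match is a description of letters in this window and not evidence of binding. The 4 sequences below are shown because each holds a searched motif near the start of a gene that stood above both singles. Capitals mark the matches: the NFAT core and the kB letters in Il1rn (the third start, plus strand, chr2:24345121-24345370), the NFAT core and the AP-1 site in Serpinb2 (the first start, plus strand, chr1:107511173-107511422), the interferon element in Edn1 (plus strand, chr13:42301226-42301475) and 2 overlapping interferon elements in Socs1 (minus strand, chr16:10785537-10785786).
Il1rn: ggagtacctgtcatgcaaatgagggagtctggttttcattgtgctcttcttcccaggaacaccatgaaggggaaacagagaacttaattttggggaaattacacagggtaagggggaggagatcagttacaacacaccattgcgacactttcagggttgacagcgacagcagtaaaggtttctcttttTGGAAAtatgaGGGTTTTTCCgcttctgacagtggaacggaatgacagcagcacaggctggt
Serpinb2: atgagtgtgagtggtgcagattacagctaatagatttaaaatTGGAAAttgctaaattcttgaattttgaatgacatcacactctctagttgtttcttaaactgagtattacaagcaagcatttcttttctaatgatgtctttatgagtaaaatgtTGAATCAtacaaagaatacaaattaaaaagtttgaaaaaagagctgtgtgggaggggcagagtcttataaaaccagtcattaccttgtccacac
Edn1: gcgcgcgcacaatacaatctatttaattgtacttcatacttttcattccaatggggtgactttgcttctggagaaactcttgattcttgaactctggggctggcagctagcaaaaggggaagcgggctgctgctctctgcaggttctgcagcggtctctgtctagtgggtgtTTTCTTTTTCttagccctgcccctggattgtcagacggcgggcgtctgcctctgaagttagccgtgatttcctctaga
Socs1: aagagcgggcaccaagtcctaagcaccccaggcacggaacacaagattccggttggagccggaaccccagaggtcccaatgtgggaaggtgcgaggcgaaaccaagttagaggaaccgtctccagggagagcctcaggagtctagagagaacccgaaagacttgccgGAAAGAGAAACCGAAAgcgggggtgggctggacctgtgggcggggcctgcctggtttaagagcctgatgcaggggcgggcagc

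No gene was called below both singles by the joint rule (edgeR), and DESeq2 called 0 as well. At an unadjusted p under 0.05 in both contrasts and 1 log2 unit, 38 genes lay below both. The 5 genes called lower in each contrast taken separately were Dok2, Dynll1, Mast3, Ptpro and Tbc1d2b, a set chosen after its values were seen. Dok2, an adaptor that dampens tyrosine kinase signalling, measured 138, 186 and 112 CPM with Zymosan, 311, 153 and 189 CPM with CpGB and 51.5, 61.5 and 48.5 CPM with the pair. All 3 pair libraries lay below the 6 single-ligand libraries, and the Ctrl mean of 379.5 CPM was above every group. The fall was -1.39 ± 0.40 against Zymosan (adjusted p = 0.007) and -1.91 ± 0.38 against CpGB (adjusted p = 4.4e-05). Myo1f, an unconventional myosin of leukocytes, was the 1 gene below both by the joint rule without the fold threshold (0.0212%), at 547 CPM, 514 CPM and 269 CPM with Zymosan, CpGB and the pair. Scaled by library size alone, this gene passed with the fold threshold too.

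Of 17 tested inflammatory cytokine genes, 12 were called higher with the pair than with Zymosan and none lower, with a median difference of 2.13 beside -0.04 over all tested genes (log2). The share called higher over all tested genes was 8.05% against Zymosan and 3.56% against CpGB. The share called lower was 3.24% and 0.742%. These shares are the background for the counts of every list that follows. Against CpGB the 17 cytokine genes had a median of 0.62 beside 0.00, with 3 called higher (Tnf, Il1rn and Inhba) and none lower. Il6, a cytokine of the acute phase response, measured 138, 166 and 159 CPM with Zymosan, 1009, 1195 and 1277 CPM with CpGB and 1111, 1199 and 1444 CPM with the pair. The pair lay 3.00 ± 0.20 above Zymosan (adjusted p = 8.2e-33) and overlapped with CpGB, with a difference of 0.10 ± 0.15 (adjusted p = 0.8). The Zymosan mean of Il6 was near that of Ctrl, 126 CPM. Il1b, the precursor of interleukin-1 beta, measured 893, 928 and 858 CPM, 5182, 4958 and 6488 CPM and 5372, 4483 and 4692 CPM in the same order. Its pair and CpGB libraries overlapped as well (log2 difference -0.20 ± 0.11, adjusted p = 0.37).

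Il12b encodes the p40 chain shared by interleukin-12 and interleukin-23. Its counts were low with Zymosan, at 9.2, 6.4 and 14 CPM, and higher with CpGB, at 165, 179 and 175 CPM, and with the pair, at 118, 97.3 and 155 CPM. The pair libraries lay below the CpGB libraries, but the difference of -0.48 ± 0.41 did not pass the test (adjusted p = 0.6). Il10, an anti-inflammatory cytokine, was higher in every pair library than in any single, with 9.2, 12.8 and 0 CPM, 19.4, 15.3 and 13.8 CPM and 51.5, 25.6 and 48.5 CPM. Over the group it had 3 counts with Zymosan and 22 with the pair, 6.54 times as much after scaling (95% counting interval 1.97 to 34.1). The rise over Zymosan passed the test (adjusted p = 0.0088) but was lost without the third Zymosan library, and the rise over CpGB did not pass (adjusted p = 0.2). Il23a, the partner chain of interleukin-23, had no count in the 12 libraries of these 4 groups, which allows up to 6.26 CPM with Zymosan, 5.82 CPM with CpGB and 5.58 CPM with the pair.

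Of 18 tested chemokine genes, 10 were higher with the pair than with Zymosan (median 1.63) and 1, Ccl2, was higher than with CpGB (median 0.15), with none lower in either contrast. Ccl4, a chemokine that attracts monocytes and T cells, measured 1675, 1561 and 1432 CPM with Zymosan, 5463, 6372 and 7525 CPM with CpGB and 11841, 9406 and 14153 CPM with the pair. No libraries overlapped, and the pair exceeded CpGB by 0.87 ± 0.15 (adjusted p = 2.4e-06), just short of the fold threshold. Ccl5, which attracts T cells, measured 2356, 2822 and 2267 CPM, 11577, 12759 and 16988 CPM and 10906, 10226 and 12966 CPM, and here the pair overlapped with CpGB. Cxcl1, a neutrophil attractant, averaged 245 ± 5.41 CPM with Zymosan, 639 ± 42 CPM with CpGB and 717 ± 63.4 CPM with the pair (mean ± SD, n = 3). Its rise over Zymosan was 1.54 ± 0.23 and its difference from CpGB 0.15 ± 0.20, which turned negative when libraries were thinned to equal totals.

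All 15 genes of the interferon response list were called higher with the pair than with Zymosan, with a median of 2.39 on the log2 scale. None was called against CpGB, where the median was 0.32 and 5 members were higher without the fold threshold (5.53% of all tested genes were). Ifit1, which binds foreign RNA, measured 349.7, 569.5 and 209.9 CPM with Zymosan, 1174, 2027 and 1443 CPM with CpGB and 2325, 2557 and 3388 CPM with the pair. The lowest pair library lay above every CpGB library, and the pair exceeded CpGB by 0.82 ± 0.14 (adjusted p = 2.4e-06), a difference that passed the fold threshold without the second CpGB library. Cxcl10, the interferon-induced ligand of CXCR3, measured 497, 781 and 331 CPM, 902, 2471 and 1831 CPM and 1862, 2157 and 2734 CPM, and the pair overlapped with CpGB (log2 difference 0.34 ± 0.18, adjusted p = 0.31). Mx1 averaged 614 ± 203 CPM, 2649 ± 604 CPM and 3083 ± 412 CPM, and Usp18, a brake on interferon receptor signalling, 75.2 ± 20 CPM, 547 ± 102 CPM and 573 ± 133 CPM. Among markers of plasmacytoid dendritic cells, which are strong interferon producers, Bst2 averaged 122 CPM with Zymosan, 666 CPM with CpGB and 588 CPM with the pair, and Tcf4 21.2 CPM, 81.4 CPM and 91.5 CPM. The other 4 of 6 markers (Siglech, Ccr9, Klk1 and Cox6a2) were at or near 0 in the same libraries. Over the 6 markers the sum ran from 129 to 154 CPM with Zymosan, 684 to 890 CPM with CpGB and 615 to 743 CPM with the pair, and the part of such cells in the interferon result was not tested.

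Of 10 tested costimulation genes, 4 were higher than with Zymosan (Cd40, Cd86, Fscn1 and Cd274) and none was called against CpGB. Cd40, the receptor for the T cell ligand CD154, averaged 122 ± 17 CPM with Zymosan, 750.4 ± 143 CPM with CpGB and 723 ± 92.6 CPM with the pair. Cd274, which encodes PD-L1, averaged 559 ± 142 CPM, 1059 ± 177 CPM and 1839 ± 427 CPM, and exceeded CpGB by 0.78 ± 0.13 (adjusted p = 2.6e-07). Of 18 tested NF-kB subunits and brakes, 5 rose over Zymosan (Nfkb2, Nfkbiz, Zc3h12a, Zfp36 and Socs3) and 1, Socs3, over CpGB. Nfkbiz, a nuclear IkB protein, stood between the singles at 71.4 CPM, 502 CPM and 275 CPM, and its difference from CpGB was -0.89 ± 0.18 (adjusted p = 9.6e-05). Of 7 tested genes of MHC class II presentation, none was called in either contrast, with medians of 0.21 against Zymosan and 0.16 against CpGB. Among all tested genes, 8.05% were called higher than with Zymosan and 3.56% higher than with CpGB.

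Among enzymes of inflammatory mediators, Ptgs2 and Nos2 had their highest means with the pair. Ptgs2, which encodes cyclooxygenase-2, measured 119.6, 115 and 154 CPM with Zymosan, 184, 209 and 346 CPM with CpGB and 486, 435 and 572 CPM with the pair. No libraries overlapped; the rise over CpGB of 0.95 ± 0.22 (adjusted p = 0.00099) fell short of the fold threshold, and it passed with no filter on low counts, when libraries were thinned to equal totals, and without the second pair library or the third CpGB library. Nos2, the inducible nitric oxide synthase, measured 9.2, 6.4 and 4.67 CPM, 9.7, 5.11 and 23.1 CPM and 44.2, 41 and 53.3 CPM. It had 3 counts with Zymosan and 25 with the pair, 7.43 times as much after scaling (95% counting interval 2.27 to 38.5). The difference from Zymosan passed the test (adjusted p = 0.0059), and the call was lost without the third Zymosan library. The difference from CpGB, 1.73 ± 0.65, did not pass (adjusted p = 0.089). Irg1, the itaconate-producing enzyme also named Acod1, averaged 1164 ± 229 CPM, 2596 ± 218 CPM and 2760.2 ± 72.2 CPM, with the pair 0.08 ± 0.11 from CpGB. Of 6 tested genes of arginine, nitric oxide and itaconate metabolism, 3 rose over Zymosan (Nos2, Slc7a2 and Irg1) and 1 over CpGB (Odc1, ornithine decarboxylase). Ptgs1, the constitutive cyclooxygenase, fell instead, from 110.4, 83.2 and 79.3 CPM with Zymosan to 0, 5.12 and 9.69 CPM with the pair, with 19.4, 40.8 and 0 CPM for CpGB.

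Of 12 tested Nrf2 genes, 6 were called higher with the pair than with CpGB (median 1.13) and 1, Mt2, higher than with Zymosan (median -0.14). Hmox1, the heme-degrading enzyme, measured 1500.0, 1702 and 1768 CPM with Zymosan, 514, 475 and 479.6 CPM with CpGB and 1626, 1660.0 and 1527 CPM with the pair. The pair overlapped with Zymosan (log2 difference -0.06 ± 0.16, adjusted p = 0.89) and lay 1.72 ± 0.19 above CpGB (adjusted p = 1.7e-14). Sqstm1, an autophagy receptor that also frees Nrf2, averaged 1896 ± 98.5 CPM, 708 ± 59.9 CPM and 1831 ± 281 CPM. Srxn1, Gclm and Mt1 were the remaining members above CpGB, with differences of 1.35, 1.25 and 1.73 on the log2 scale.

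In glycolysis and hypoxia, 11 of 16 tested genes were called higher with the pair than with CpGB, with a median of 1.18, and none lower. Against Zymosan, 1 of the 16, Vegfa, was called lower and none higher (median -0.14). The 11 were Slc2a1, Hk2, Tpi1, Pgk1, Pgam1, Pkm, Ldha, Slc16a3, Vegfa, Bnip3 and Egln3. Slc2a1, the glucose transporter GLUT1, measured 579.7, 538 and 471 CPM with Zymosan, 155, 81.7 and 166 CPM with CpGB and 361, 461 and 388 CPM with the pair. CpGB lay below the Ctrl mean of 259 CPM and the pair above it, 1.61 ± 0.25 over CpGB (adjusted p = 9.0e-08). Ldha, lactate dehydrogenase A, measured 2172, 2220.5 and 2421 CPM, 1009, 1031 and 1102 CPM and 2127, 2254 and 2370.2 CPM, so that pair and Zymosan overlapped. Vegfa, the vascular growth factor, was the 1 member called below Zymosan. Like Slc2a1 it stood between the singles, at 129, 192 and 243 CPM, 19.4, 51.1 and 18.4 CPM and 110.4, 56.4 and 111 CPM. For both genes the pair libraries overlapped with neither single. Inhba, the activin A subunit, is a cytokine with the same order of ligands, at 258, 275 and 215 CPM, 58.2, 71.5 and 134 CPM and 478, 409.9 and 247 CPM, with a rise of 1.96 ± 0.30 over CpGB (adjusted p = 9.0e-08).

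**Figure D3:**
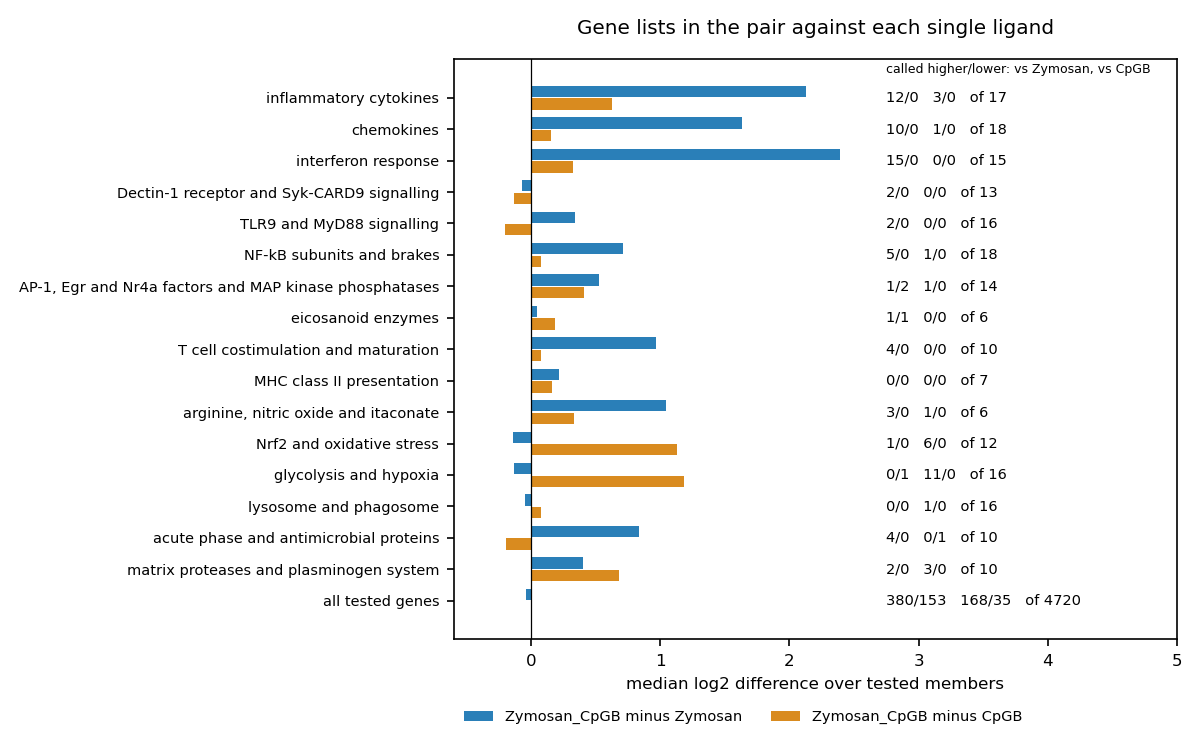
Median log2 difference of the tested members of 16 gene lists between the pair and Zymosan (blue) and between the pair and CpGB (orange), with the number called higher and lower beside each list and the median of all tested genes as the bottom row. The interferon list has the largest median against Zymosan (2.39) and the glycolysis list the largest against CpGB (1.18).

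Clec7a, the gene of Dectin-1, measured 745, 787 and 746 CPM with Zymosan, 349, 291 and 503 CPM with CpGB and 353, 497 and 543 CPM with the pair, all below the Ctrl mean of 975 CPM. The pair lay -0.68 ± 0.16 from Zymosan (adjusted p = 0.0005), short of the fold threshold, which it passed when libraries were thinned to equal totals (-1.15), and it overlapped with CpGB (log2 difference 0.29 ± 0.17). Of 13 tested genes of Dectin-1 and Syk signalling, 2 were called higher with the pair than with Zymosan, among them the Src family kinase Lyn by 1.03, and none was called against CpGB. Tlr9 had no count in any of the 12 libraries, with the same upper limits as Il23a. Of 16 tested genes of TLR9 and MyD88 signalling, Myd88 and Irf7 rose over Zymosan, by 1.40 and 1.96, and none was called against CpGB. Over all tested genes, 8.05% were called higher than with Zymosan.

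Among immediate early factors, Egr2 and Fos were lower with the pair than with Zymosan. Egr2, a factor downstream of NFAT in Dectin-1 signalling, measured 110.4, 134 and 154 CPM with Zymosan, 38.8, 15.3 and 18.4 CPM with CpGB and 7.36, 46.1 and 33.9 CPM with the pair. The difference was -2.09 ± 0.42 on the log2 scale against Zymosan (adjusted p = 2.7e-05), and the pair overlapped with CpGB. Fos fell against Zymosan too, from 63.4 CPM to 10.1 CPM, and Batf rose from 8.31 CPM to 95.8 CPM, near its CpGB mean of 94.8 CPM. Dusp1, a MAP kinase phosphatase, was the member of this list called above CpGB, with 130.4 CPM, 64.1 CPM and 187 CPM. In all, 14 genes of the list were tested, with 1 rise and 2 falls against Zymosan and 1 rise against CpGB. Among all tested genes, 8.05% rose and 3.24% fell against Zymosan, and 3.56% rose against CpGB.

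Among acute phase genes, Saa3 took a level between the singles. Saa3, a serum amyloid protein made by macrophages, measured 644, 486 and 495 CPM with Zymosan, 9102, 6658 and 7055 CPM with CpGB and 4563, 2874 and 3329.9 CPM with the pair. No libraries overlapped: the pair stood 2.74 ± 0.20 above Zymosan (adjusted p = 3.1e-28) and -1.09 ± 0.17 from CpGB (adjusted p = 5.7e-08). The 6 genes called above Zymosan and below CpGB were Saa3, Blnk, Maf, Marco, Pou2f2 and Zfp811, and the 9 called below Zymosan and above CpGB were Vegfa, Ero1l, Fam198b, Inf2, Pla2g15, Ptgr1, Tnfrsf26, Wfs1 and Zdhhc18; both sets were named after their values were seen. Of 10 tested acute phase genes, 4 rose over Zymosan (Saa3, Lcn2, Cp and Cfb) and Saa3 fell against CpGB. Of 10 tested matrix protease and plasminogen genes, 2 rose over Zymosan (Serpinb2 and Timp1) and 3 over CpGB (Serpinb2, Plau and Plaur). Plau encodes urokinase and Plaur its receptor; Plaur averaged 187 ± 17.7 CPM with Zymosan, 116 ± 33.7 CPM with CpGB and 279 ± 44.2 CPM with the pair. Of 16 tested lysosome genes, 1, Atp6v0d2 of the proton pump, was called, 1.57 ± 0.22 above CpGB. Among all tested genes, 3.56% were called higher than with CpGB.

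The largest rises over a single were of genes with few or no counts in that single. Over Zymosan these were Cd300e, Zfp811, Niacr1, Cp, I830012O16Rik and Ddx60, ranked among genes of at least 50 CPM in 1 of the groups. Cd300e, an activating receptor of myeloid cells, had no count with Zymosan and 36.8, 30.7 and 24.2 CPM with the pair, at least 4.76-fold higher against a floor of 3 counts over the group. CpGB alone was higher still, at 48.5, 66.4 and 73.8 CPM. Cp, the copper-carrying ferroxidase ceruloplasmin, measured 9.2, 12.8 and 4.67 CPM, 136, 138 and 226 CPM and 177, 118 and 145 CPM with Zymosan, CpGB and the pair. Niacr1, the niacin receptor, had 1 count with Zymosan and 28 with the pair, 25.0 times as much after scaling (95% counting interval 4.13 to 1021). Ddx60, a helicase of antiviral defence, had 2 counts with Zymosan and 35 with the pair.

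Over CpGB the largest rises with the same limit were of Atp13a4, Vasn, Egln3, Hbegf, Mid1 and St6galnac4, all higher with Zymosan than with CpGB. Hbegf, a ligand of the epidermal growth factor receptor, measured 73.6, 96 and 70 CPM with Zymosan, 0, 0 and 9.22 CPM with CpGB and 110.4, 113 and 121 CPM with the pair. It had 2 counts over the CpGB group, and the pair gave 29.8 times as much (95% counting interval 7.9 to 251). Egln3, an oxygen-sensing prolyl hydroxylase, measured 46, 32 and 60.6 CPM, 9.7, 0 and 0 CPM and 66.2, 92.2 and 116 CPM. Atp13a4, a P-type ATPase, and Vasn, a membrane protein that binds TGF-beta, had no count with CpGB and were at least 8.64-fold and at least 6.72-fold higher with the pair.

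Among genes of at least 50 CPM in 1 of the groups, the 4 largest falls against Zymosan were of Ptgs1, Glul, Cd300lb and Polr2e. Cd300lb, an activating receptor, went from 147, 218 and 117 CPM with Zymosan to 36.8, 15.4 and 14.5 CPM with the pair, and CpGB gave 48.5, 30.6 and 50.7 CPM. Glul, glutamine synthetase, went from 36.8, 64 and 56 CPM to 0, 15.4 and 0 CPM, with 0, 15.3 and 9.22 CPM for CpGB. CpGB alone was thus already low for both. With the same limit, the 4 largest falls against CpGB were of Smc4, Dok2, Tbc1d2b and Lad1, and leaving out 1 library took the call from all but Dok2. Lad1, a basement membrane anchor protein, measured 18.4, 12.8 and 4.67 CPM, 155, 71.5 and 96.8 CPM and 51.5, 20.5 and 19.4 CPM with Zymosan, CpGB and the pair, and lost its call without the third pair library. Smc4, a condensin subunit, averaged 12.6 CPM, 53.8 CPM and 11.7 CPM and lost its call without the first or the third pair library or without the second CpGB library. Tbc1d2b lost its call against CpGB without the second or the third pair library or without the third CpGB library.

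The pair was placed relative to the singles for the 735 genes that differed between them, by testing it against the midpoint of both singles on the log2 scale. On the CpGB side of the midpoint lay 183 genes (3.88% of all tested genes) and on the Zymosan side 50 (1.06%), while 502 did not pass the midpoint test. The sides were then counted by which ligand raised the gene over Ctrl. Of 304 genes that were higher with CpGB and raised by it over Ctrl, 158 lay on the CpGB side (52.0%) and 1 on the Zymosan side. Of 74 genes that were higher with Zymosan and raised by it, 29 lay on the Zymosan side (39.2%) and none on the CpGB side. With 0 for the Zymosan level and 1 for the CpGB level, the median position of the pair was 0.93 in the former and 0.21 in the latter. Genes that CpGB lowered under Ctrl lay midway on the median: of 123 such genes that were higher with Zymosan, 7 lay on the CpGB side and 8 on the Zymosan side, with a median position of 0.50.

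Of all 735 genes, 24.9% lay on the CpGB side and 6.80% on the Zymosan side. By gene group, the CpGB side held all 15 interferon genes, 9 of the 13 chemokine genes that differed between the singles and 6 of 9 such cytokine genes. The Zymosan side held 8 of 11 such glycolysis genes and 5 of 9 such Nrf2 genes. Furthest past the midpoint on the CpGB side were Ptgs1, Serpina3f, I830012O16Rik, Htra4, Niacr1 and Socs3. Serpina3f, a serine protease inhibitor, measured 18.4, 0 and 4.67 CPM with Zymosan, 9.7, 20.4 and 50.7 CPM with CpGB and 22.1, 71.7 and 107 CPM with the pair. Htra4, a serine protease, measured 18.4, 25.6 and 23.3 CPM, 77.6, 138 and 96.8 CPM and 250.2, 220.3 and 223 CPM, so the pair stood above the CpGB libraries. Furthest on the Zymosan side were Atp13a4, Egln3, Hbegf, Vasn, Car2 and St6galnac4. St6galnac4, a sialyltransferase, averaged 61.5 ± 5.49 CPM, 6.31 ± 5.47 CPM and 77.6 ± 9.3 CPM. Of these 12 genes, Niacr1 did not pass the midpoint test without the third pair library and Ptgs1 without the second CpGB library. Vasn did not pass without any 1 of 5 libraries (the third pair, the first Zymosan and each CpGB library). Vasn also missed it with library size alone, and Hbegf when libraries were thinned to equal totals. Ptgs1, Niacr1, Atp13a4, Egln3 and Vasn had no midpoint result with DESeq2 or when thinned, and St6galnac4 none when thinned.

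**Figure D4:**
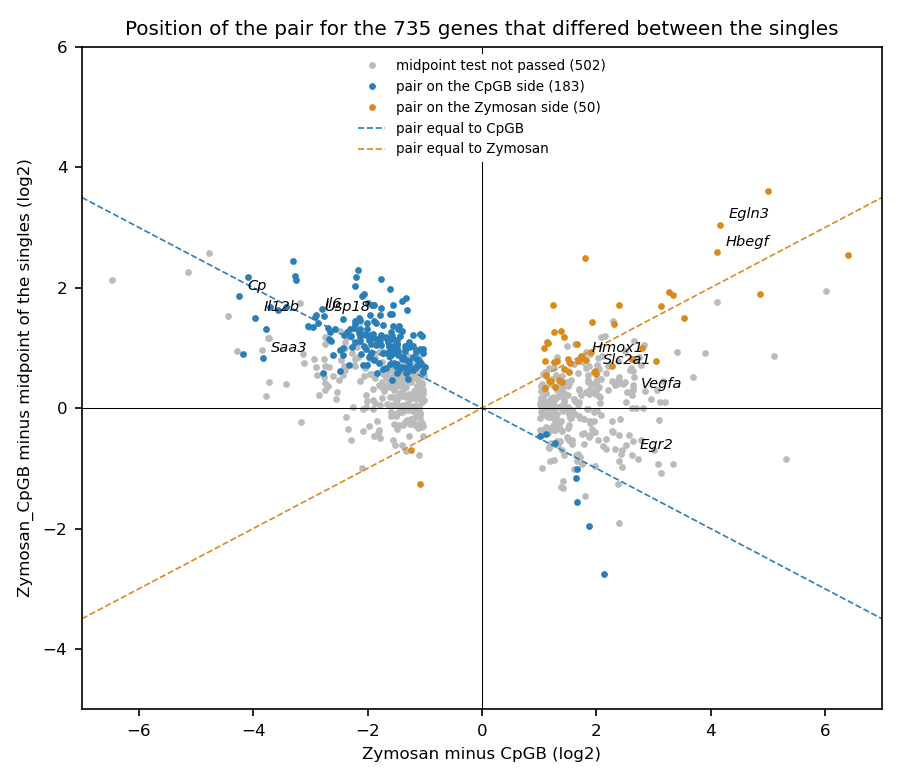
Each point is 1 of the 735 genes that differed between the singles, placed by the log2 difference of Zymosan and CpGB (horizontal) and of the pair and the midpoint of both (vertical), with dashed lines where the pair equals CpGB (blue) or Zymosan (orange). The 183 blue points, on the CpGB side, lie mostly at the upper left along the line for CpGB, and the 50 orange points, on the Zymosan side, mostly at the upper right along the line for Zymosan.

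The log2 effects of both ligands over Ctrl did not add up for 164 genes (3.47%): the pair exceeded the sum for 55 (1.17%) and fell short of it for 109 (2.31%). The shortfalls were led by genes that each ligand alone already raised strongly. Clec4e, the receptor Mincle, averaged 384 ± 66.7 CPM in Ctrl, 2686 ± 197 CPM with Zymosan, 2432 ± 183 CPM with CpGB and 2667 ± 184 CPM with the pair. Its interaction term was -2.68 ± 0.19 (adjusted p = 1.8e-29). Cxcl2, a neutrophil attractant, averaged 459 CPM, 3596 CPM, 4328 CPM and 4832 CPM in that order, with a term of -2.81 ± 0.28. Sod2, the mitochondrial superoxide dismutase, had a term of -1.75 ± 0.17. Tnf, although above both singles, fell short of the sum, with a term of -1.52 ± 0.24 (adjusted p = 8.0e-07), and each single had raised it over Ctrl by 2.65 and 2.83.

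Excesses over the sum were led by genes with lower means in both singles than in Ctrl. Lgals3, which encodes galectin-3, averaged 4012 CPM in Ctrl, 3662 CPM with Zymosan, 1501 CPM with CpGB and 3015 CPM with the pair (term 1.13 ± 0.17, adjusted p = 4.8e-08). Arhgap25, a brake on the GTPase Rac, averaged 519.5 CPM, 158 CPM, 65.3 CPM and 138 CPM, and Fcgr3, an activating Fc receptor, 363 CPM, 158 CPM, 178 CPM and 272 CPM. Ctrl enters this test with the fewest UMIs, and the count of excesses was 19 with no filter on low counts and 27 to 39 with any 1 of the 12 libraries left out. Of the 16 lists, 6 had at least 4 terms that passed in 1 direction. These were negative for 4 of 6 genes of arginine, nitric oxide and itaconate metabolism, 4 of 10 acute phase genes, 4 of 13 genes of Dectin-1 and Syk signalling, 5 of 18 chemokine genes (with 1 positive) and 4 of 18 NF-kB genes. They were positive for 5 of 16 lysosome genes (with 1 negative).

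The same comparison was made in 9 further libraries in which HMW, a ligand named only by that label, was present in all 3 groups. With HMW, 27 genes were called above both singles (0.572%) and none below both (edgeR), where DESeq2 also gave 0 and 30 genes had an unadjusted p under 0.05 in both contrasts with 1 log2 unit. The overlap with the 14 genes was 9 genes, 64.3% of the 14 and 33.3% of the 27: Edn1, Serpinb2, Car2, Stx11, A630072M18Rik, Socs3, Tiparp, Tnf and Mt2. The overlap was 5 genes with DESeq2, 4 with scaling by library size alone and 3 when libraries were thinned to equal totals, and the count above both with HMW was 17 and 10 under the last 2 of these. All 14 were higher with the pair in both contrasts, the smaller difference running from 0.34 to 2.57 with a median of 1.16, beside -0.21 over all tested genes. Tnf measured 5640.3, 5223 and 5433 CPM with HMW_Zymosan, 5788, 6466 and 6240.3 CPM with HMW_CpGB and 12644, 12025 and 12624 CPM with HMW_Zymosan_CpGB. Edn1 measured 89, 41.3 and 73 CPM, 65.6, 106 and 82.8 CPM and 642, 386 and 565 CPM in that order, again with no overlap. Socs3 measured 82.7, 124 and 131 CPM, 295, 331 and 317 CPM and 834, 709.8 and 855 CPM.

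A further 18 genes were called above both only in the libraries with HMW, and whether HMW changed their response was not tested. They were Arid5a, Ccl2, Ccl4, Cmpk2, Gbp4, Ier3, Iigp1, Il10, Il1a, Mdm2, Nos2, P2ry14, Pfkfb3, Ptgs2, Serpina3f, Serpina3g, Tnfsf15 and Upp1. In all 18 the smaller difference was positive without HMW as well. Nos2 measured 6.36, 0 and 7.3 CPM with HMW_Zymosan, 5.47, 6.82 and 4.6 CPM with HMW_CpGB and 66.7, 30.9 and 71.6 CPM with HMW_Zymosan_CpGB. Il10 measured 0, 5.9 and 0 CPM, 0, 3.41 and 4.6 CPM and 33.3, 51.4 and 42.1 CPM. Ptgs2 measured 127, 142 and 120.4 CPM, 191, 256 and 138 CPM and 583, 519 and 552 CPM. The pair libraries stood above all HMW singles for each of these 3 genes.

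**Figure D5:**
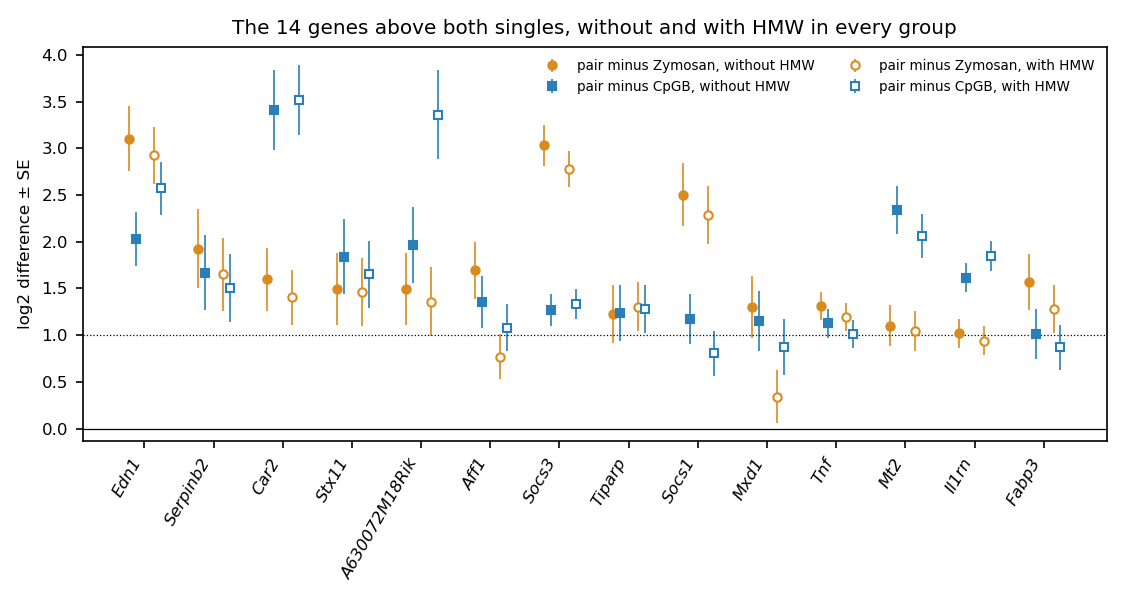
Log2 differences ± SE of the 14 genes above both singles, for the pair against Zymosan (orange circles) and against CpGB (blue squares), without HMW (filled) and with HMW (open), with a dotted line at 1. All open symbols lie above 0, the lowest being Mxd1 against Zymosan with HMW at 0.34.

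The gain from Zymosan was also set beside its gain when added to LPS or to PAM, other ligands of the series. Over CpGB and over LPS the gain differed for 1 gene, Prdx6, larger with CpGB (0.0212%), and for none in the other direction (edgeR; DESeq2 gave 1 and 0, and at an unadjusted p under 0.05 there were 149 larger and 124 smaller). Prdx6, a peroxiredoxin, went from 278 ± 55 CPM with CpGB to 1175 ± 129.6 CPM with the pair, and from 356 ± 83.1 CPM with LPS to 627 ± 69.9 CPM with LPS_Zymosan (mean ± SD, n = 3). The difference between the gains was 1.35 ± 0.27 (adjusted p = 0.004). Against PAM the gain was larger with CpGB for 2 genes (0.0424%), the interferon response genes Mx1 and Rsad2, and smaller for none (edgeR; DESeq2 gave 11 and 1, and at an unadjusted p under 0.05 there were 190 larger and 131 smaller). Rsad2, which encodes viperin, went from 2457 ± 642 CPM to 4883 ± 671 CPM with CpGB as the partner and from 803 ± 20.7 CPM to 714 ± 64.5 CPM with PAM. Mx1, an antiviral GTPase, went from 2649 ± 604 CPM to 3083 ± 412 CPM and from 824 ± 45.3 CPM to 499.6 ± 44.6 CPM. Each of these 3 calls was lost when 1 of several libraries was left out, Prdx6 without the second or the third CpGB or LPS library and Mx1 and Rsad2 without any PAM or PAM_Zymosan library, the second or the third pair library, or the first or the third CpGB library.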

How the data were processed

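The deposited table holds raw counts of unique molecular identifiers per gene, which the authors made from 192 RNA libraries. Per the labels' protocols, these were built by template switching and Nextera XT tagmentation and read on a NextSeq550, and the submitters' processing notes name BWA 0.7.15 and mm10. The annotation, the collapsing of identifiers and the treatment of reads with several matches are not given in the sources used here, so counts of near-identical or overlapping genes are uncertain. Totals of the 12 libraries of Ctrl, the singles and the pair ran from 61823 to 218755 counts.

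All 192 libraries entered 1 edgeR 4.0.16 quasi-likelihood model (R 4.3.3) with 1 coefficient per group (64 groups, 128 residual degrees of freedom), TMM scaling and the filterByExpr filter, which kept 4720 genes with 95.7% of all counts. P-values were Benjamini-Hochberg adjusted over these genes. A gene was called at an adjusted p under 0.05 and 1 log2 unit, except that the midpoint, interaction and gain tests had no fold threshold. Genes above or below both singles were called on the larger of both p-values. The code was tested on simulated data. Alternatives were other scalings, DESeq2 1.42.0, no filter, thinning to equal totals, a model of fewer groups, a replicate block, no fold threshold and leaving out each library.

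Members and lists were chosen with earlier results of these data known. Genes were named by 14 preset symbols, by membership in 16 lists, and by rank among genes of at least 50 CPM in 1 group: up to 12 above both, 6 rises and 4 falls per contrast, 6 on each side of the midpoint and 3 interactions of each sign. Il1rn, Fabp3, Myo1f, the genes lying between the singles and those called only with HMW were named after their values were seen. Libraries of 1 group differed by more than sampling noise (chi-square per degree of freedom 1.16 to 1.50 over the 9 libraries), and none was merged. For 1 member of the lists, which is included in their counts, the values are not reported here.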

Additional observations from a re-analysis of the deposited data

Results flagged for a closer look

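For 3 genes the gain from Zymosan differed between partner ligands by the test of the difference itself. For Prdx6, a peroxiredoxin, the gain over CpGB exceeded the gain over LPS by 1.35 on the log2 scale. Prdx6 averaged 278 CPM with CpGB and 1175 CPM with the pair, 356 CPM with LPS and 627 CPM with LPS_Zymosan, and 251 CPM with PAM and 1184 CPM with PAM_Zymosan. For Rsad2 the gain over CpGB exceeded the gain over PAM by 1.14, and for Mx1 by 0.91. Mx1 averaged 824 CPM with PAM and 499.6 CPM with PAM_Zymosan, and 5607 CPM with LPS and 5037 CPM with LPS_Zymosan. Its mean was thus lower with Zymosan for both of these partners and higher with Zymosan for CpGB. With no partner, Mx1 averaged 393 CPM in Ctrl and 614 CPM with Zymosan. Rsad2 averaged 636 and 1012 CPM and Prdx6 239 and 1641 CPM in the same groups. All 3 genes missed the threshold when libraries were thinned to equal totals. Mx1 also missed it with RLE size factors and with library size alone.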

How the results depend on the processing

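Directions mostly held where a value could be compared. Of these alternative values of named genes, 995 kept their direction and stayed called or uncalled, 107 lost the call, 6 gained it and 5 turned sign. A gene without an adjusted p in a setting was left out of these counts. Atp13a4, Vasn, Egln3 and Smc4 were left out in this way with DESeq2 and when libraries were thinned, and further low-count genes when thinned. The sign turns were all of uncalled differences from CpGB: Il6 (-0.0096 with library size alone, -0.025 without the third pair library and -0.0091 without the first CpGB library, in a leave-one-out range of -0.025 to 0.17), Cxcl1 (-0.32) and Clec7a (-0.00076) when thinned.

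Counts moved more, and the causes were not tested. Thinned to equal totals, the pair differed from Zymosan in 189 rises and 52 falls and from CpGB in 62 and 23. Thinning also gave 126 genes higher with Zymosan and 211 with CpGB. It gave 6 genes above both, of which 3 were among the 14 (Edn1, Socs3 and Tnf), beside Cmpk2, Il1a and Ptgs2. On the CpGB and Zymosan sides lay 83 and 19 genes, and there were 24 excesses and 50 shortfalls. Against Ctrl, thinning gave 99 rises and 33 falls for Zymosan, 297 and 145 for CpGB and 314 and 144 for the pair. With HMW it left 10 genes above both, 3 of them shared, and the gain was larger for 0 genes against LPS and 1 against PAM. Library size alone gave 273 falls against Zymosan, 61 against CpGB, 7 genes above both, 1 below both, 17 above both with HMW and 4 shared, falls against Ctrl of 138, 491 and 632 for Zymosan, CpGB and the pair, and 1 larger gain against PAM. RLE factors gave 138 falls of Zymosan against Ctrl and 1 larger gain against PAM. These scalings moved the median of all genes against Ctrl by -0.33 at most. DESeq2 gave 97 falls against Zymosan, 8 genes above both, 5 shared with HMW, 130 rises of Zymosan over Ctrl, and 11 larger and 1 smaller gains against PAM. With no filter there were 83 falls against Zymosan, 24 genes above both, 19 excesses, falls against Ctrl of 31, 187 and 209 for Zymosan, CpGB and the pair, and gains of 2 larger and 2 smaller against LPS and 8 larger against PAM. A model of only the compared groups gave 1 gene below both with HMW, 4 larger and 2 smaller gains against LPS, and 10 and 2 against PAM. With no fold threshold there were 235 falls against Zymosan, 261 rises and 94 falls against CpGB, 43 genes above both and 1 below, 53 above both with HMW, 29 shared, and 135 falls of Zymosan against Ctrl.

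Leaving out each library in turn gave 318 to 431 rises and 76 to 131 falls against Zymosan, and 122 to 135 rises and 30 to 45 falls against CpGB. It gave 7 to 18 genes above both, 0 to 1 below both (1 without the second pair library), 18 to 34 above both with HMW, 151 to 212 genes on the CpGB side and 37 to 51 on the Zymosan side. Excesses ranged from 27 to 39 and shortfalls from 84 to 120. Falls against Ctrl ranged from 45 to 66 for Zymosan, 209 to 243 for CpGB and 225 to 302 for the pair, and larger gains from 0 to 1 against LPS and 0 to 4 against PAM.

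Deviations of same-numbered libraries correlated weakly, at -0.017 to 0.098, beside -0.108 to 0.084 for libraries of other numbers. Even so, 7 of 9 libraries correlated best with their own number. Whether a number marks a shared culture or batch was not tested. With the replicate number as a block, the counts were 381 rises and 152 falls against Zymosan, 174 and 38 against CpGB and 15 genes above both, and no call of a named gene changed. Totals were lowest in Ctrl (61823 to 89530 UMIs), so counts of calls against it rest on the fewest counts.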
